A study of Homo sapiens with 33 samples.

Results

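Nuclear RNA without and with a poly(A) tail was compared over RNA fragments bound by EZH2, the catalytic subunit of the Polycomb repressive complex PRC2, in K562 cells. K562 is a human erythroleukemia line that carries the BCR-ABL1 fusion. The cells were wild type and taken at passages 15 to 25 according to the labels. The study separated cells into cytoplasmic and nuclear RNA, passed nuclear RNA over beads that bind poly(A), and sequenced the bound polyA+ RNA and the unbound polyA− RNA after depletion of rRNA. The members are the 900 genomic fragments from EZH2 RNA immunoprecipitation (RIP-seq) for which reads were counted in both libraries, joined on chromosome, start and end. The study describes a larger set of EZH2-bound fragments, and those outside the 900 were not analysed here. Of these 900, 577 fragments (64.1%) had 50 or more reads over the 2 libraries, and all comparisons below use these unless stated otherwise. Each fraction is 1 library, so no replicate error exists and no p-value is given. Intervals are exact 95% Clopper-Pearson intervals of the ratio of reads and cover counting error only.

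Most RNA polymerase II transcripts receive a poly(A) tail when they are cut at the end of the gene. RNA that is still being made has no tail yet, and introns that are spliced out never receive one. Intronic sequence can carry a tail where it stays in a transcript that has been cut without removal of that intron. LINE-1 elements, a family of retrotransposons found in many introns, are rich in A on their sense strand.

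The 4 fractions held 7929 (cytoplasmic), 105661 (nuclear), 57985 (polyA+) and 106051 (polyA−) reads on the 900 fragments. These sums are not library totals. The labelled cell line was checked on the input RNA of the RIP-seq, where 8 erythroid markers of K562 had an FPKM of 14.3 to 218 and 5 markers of other blood cells had 0 to 0.389. Fragments were 68 to 25621 bases long, with a median of 2129.5. The fragment in MALAT1, a nuclear lncRNA, took 18.6% of all polyA+ reads and 6.21% of all polyA− reads. Without it, the summed ratio of polyA− to polyA+ reads rose from 1.83 (1.81 to 1.85) to 2.11 (2.08 to 2.13).

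The sequences shown are from fragments at the polyA− end of the ratio. For 2 of them, the window of 80 bases richest in A on the transcribed strand of GRCh38 is given, as a measure of how much A these fragments hold at most. Capitals mark runs of 4 or more A.
ARHGAP6 (chrX:11411725-11411804, minus strand): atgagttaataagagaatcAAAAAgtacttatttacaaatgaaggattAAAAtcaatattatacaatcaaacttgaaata
ENSG00000288714 (chr6:140336191-140336270, plus strand): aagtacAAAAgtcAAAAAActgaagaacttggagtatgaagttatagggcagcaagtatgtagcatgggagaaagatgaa
A made up 41 of the 80 bases in the ARHGAP6 window and 36 in the ENSG00000288714 window. Over the whole length of the 12 fragments at the polyA− end it made up 28.1% to 32.3%. Their median was 29.6%, below the median of 32.03% over all 577 fragments. At the other end, fragments in introns of PSMA1 and JAK2 and in LINC00342 had more than 3 times as many polyA+ as polyA− reads. All 3 carry LINE-1 sequence in the sense direction of the host gene, and A made up 41.5% of the PSMA1 fragment, 41.1% of the JAK2 fragment and 42.6% of the LINC00342 fragment. The longest alignment to the PSMA1 fragment ran over 1817 bases at 90.7% identity for JAK2 and over 1198 bases at 81.7% for LINC00342. Reads from such related copies can be assigned to the wrong place, although alignments under mapping quality 20 had been removed.

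Counted as deposited, polyA− reads outnumbered polyA+ reads in 489 of the 577 fragments, polyA+ reads were more numerous in 86, and 2 were equal. The median ratio was 3.24, with quartiles at 1.57 and 6.65. More than 2-fold higher in polyA− RNA were 387 fragments (67.1% of those tested), and 24 (4.16%) were more than 2-fold higher in polyA+ RNA. The ratios ran from 0.170 to 112. Since library totals are not given, the point at which the fractions are equal is not fixed, whereas the order of the fragments is the same under any scaling. With the median ratio set to 1, 156 fragments were more than 2-fold above it and 152 more than 2-fold below it. At the border of the minimum of 50 reads, the medians were close but the extremes were not. The 31 fragments with 45 to 49 reads had a median ratio of 4.26, and the 24 with 50 to 54 reads had 4.66. Ratios ran from 0.333 to a fragment with no polyA+ read in the first class, and from 1.08 to 49 in the second. That fragment would rank above every one named at the polyA− end, so the members of this end depend on the minimum.

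**Figure D1:**
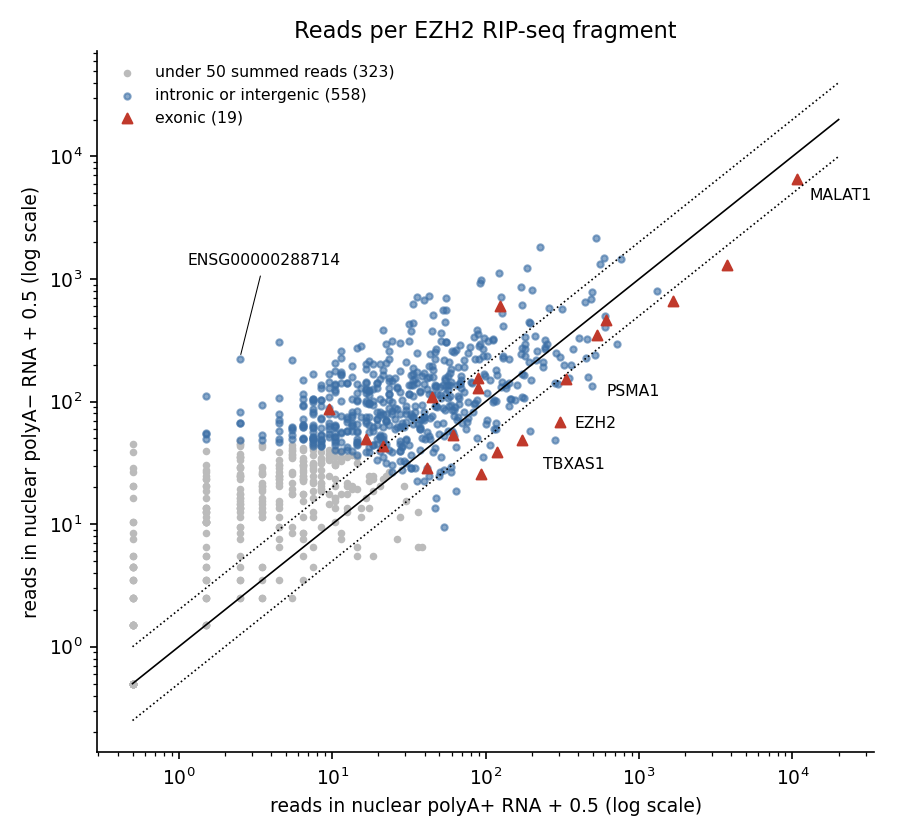
Reads of each fragment in nuclear polyA+ RNA (x) and nuclear polyA− RNA (y), each with 0.5 added, on log scales. Grey points are the 323 fragments under 50 summed reads, blue points are the 558 intronic or intergenic and red triangles the 19 exonic fragments at or above it, the solid line marks equal counts and the dotted lines 2-fold differences. Most blue points lie above the upper dotted line, and MALAT1 lies at 6584 polyA− and 10766 polyA+ reads.

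The 12 fragments at the polyA+ end lay in 12 host genes and had 59 to 5032 reads. The most extreme was a largely intronic fragment of TBXAS1, the gene of thromboxane A synthase (chr7:139903418-139906927), with 48 polyA− and 283 polyA+ reads. Exons took up 2.79% of it. Its polyA+ count was 5.90-fold higher (4.33 to 8.18), and it lay 113 kb before the end of the gene. It holds LINE-1 sequence in the antisense direction and is rich in T (42.8%) rather than A (20.3%). SLC6A6, which encodes the taurine transporter, followed with 9 and 53 reads in a fragment at chr3:14481670-14482304, 5.89-fold higher in polyA+ RNA (2.88 to 13.6). The EZH2 transcript itself came next. Its fragment at chr7:148816906-148818117, wholly within annotated exons, had 68 polyA− and 305 polyA+ reads, a 4.49-fold excess (3.44 to 5.92). The same fragment had 204 cytoplasmic and 103 nuclear reads.

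The remaining polyA+ end was made up of exons, LINE-1 sequence and a few other introns. The PSMA1 fragment, in an intron of a proteasome subunit gene (chr11:14596151-14599359), had 134 polyA− and 495 polyA+ reads, a 3.69-fold excess (3.05 to 4.51). MFSD14CP, a pseudogene, had 25 and 93 reads in exons (3.72-fold, 2.37 to 6.04). VEGFA, the angiogenic growth factor, had 48 and 171 reads in exons (3.56-fold, 2.57 to 5.02). These 3 lay side by side within counting error. In an intron of JAK2, the kinase of cytokine and erythropoietin receptors, 18 and 64 reads were counted (3.56-fold, 2.08 to 6.38). NLRP1, an inflammasome sensor, had 13 and 46 reads in an intron (3.54-fold, 1.88 to 7.14), and LINC00342 had 57 and 195 reads (3.42-fold, 2.53 to 4.68). XRRA1 had 38 and 119 reads in exons, in a stretch where the annotation also lists RNF169 and the reads of the 2 genes cannot be told apart (3.13-fold, 2.16 to 4.64). ENSG00000283515, in a stretch that also holds the endogenous retroviral gene ERVK3-1, had 159 and 465 reads (2.92-fold, 2.44 to 3.52). The twelfth, on chromosome X, is counted but not named, and had 1293 and 3739 reads. Just past it in order was GOLGA1, a Golgi protein gene, with 16 and 47 reads.

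The 12 fragments at the polyA− end lay in 10 host genes, and 9 of them had only 1 to 3 polyA+ reads, so their ratios are loosely bounded. The highest was in an intron of the lncRNA gene ENSG00000288714 (chr6:140332570-140337200), where 224 polyA− and 2 polyA+ reads were counted (ratio 112, 30.6 to 931). A pair of nearby fragments in ARHGAP6, both without an exon base, took the next places. The fragment at chrX:11419058-11421102 had 110 and 1 reads (110, 19.3 to 4384), and the one at chrX:11411597-11417105 had 303 and 4 (75.8, 29.3 to 280). MGC4859, a lncRNA gene, had 217 and 5 reads (43.4, 18.3 to 135). CAVIN2-AS1, an antisense lncRNA gene, appeared with 55 and 1 reads (55.0, 9.47 to 2211) and with 106 and 4 reads (26.5, 10.1 to 99.0). All of these intervals overlap one another, so the order within this end is not resolved at this depth.

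The other fragments at the polyA− end had 49 to 94 polyA− reads. They lay in IMMP2L, a mitochondrial inner membrane peptidase gene (54 and 1 reads), in the lncRNA LINC00534 (82 and 2) and in ALDH1A2, a gene of retinoic acid synthesis (49 and 1). MAML2, a coactivator of Notch signalling, and the pseudogene ENSG00000277654 each had 67 and 2 reads, and the lncRNA LINC02882 had 94 and 3. The lowest bound of the interval over all 12 fragments was 8.39, in ALDH1A2. The highest bound at the polyA+ end was 0.532, in NLRP1.

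The ends differed in what they hold and in the other fractions. At the polyA+ end, 5 of 12 fragments (41.7%) were exonic, meaning that at least 50% of their length lay in exons of the host gene. At the same end, 3 (25%) carried at least 500 bases of sense LINE-1 sequence, near the 22.5% over all fragments. At the polyA− end, none was exonic, none carried that much sense LINE-1 sequence, and 11 of 12 held no exon base of the host gene. At the polyA+ end, 4 of 12 held no such base. Among all 577 fragments, 19 (3.29%) were exonic, 130 (22.5%) carried that much sense LINE-1 sequence, and 449 (77.8%) lay in genes without an exon base of the host. The median host gene was 103 kb long at the polyA+ end, 505 kb at the polyA− end and 246 kb over all fragments. In the cytoplasmic and nuclear libraries, which the ratio does not use, the polyA+ end had 580 and 3254 reads and the polyA− end had 22 and 1465. The median nuclear to cytoplasmic ratio of a fragment, with 0.5 added to each count, was 5.25 at the polyA+ end, 60.2 at the polyA− end and 23 over all 577 fragments. Nuclear reads summed to 1.70 times the polyA− reads at the polyA+ end, 1.03 times at the polyA− end and 0.996 times over all 577 fragments. The polyA− reads also placed the fragments at the ends, so these multiples are not independent of that choice.

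The nuclear to cytoplasmic ratio rose with the polyA− to polyA+ ratio across its whole range. The 577 fragments were divided by rank of the polyA− to polyA+ ratio into 4 classes of 144 or 145. From the lowest class to the highest, the median nuclear to cytoplasmic ratio was 10.2, 19.7, 29.3 and 35.3. The Spearman correlation of the 2 log ratios was 0.51 over the 575 fragments that also had at least 20 nuclear and cytoplasmic reads together, and 0.46 over the 447 of them without an exon base. The ratios share no library, but they share the fragments, whose neighbours often lie in 1 gene. Fewer molecules in a fraction and a shallower library cannot be told apart in either ratio.

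Exonic fragments were lower than intronic ones. The 19 exonic fragments had a median ratio of 0.687, with 7 (36.8%) over 2-fold in the polyA+ direction and 5 (26.3%) in the polyA− direction, against 4.16% and 67.1% over all fragments. The 508 intronic fragments had a median of 3.41, with 17 (3.35%) and 349 (68.7%) past 2-fold in these directions, and the 50 intergenic fragments 3.09. Median log2 ratios of exonic and intronic fragments differed by -2.31. With any exon base counted as exonic, the difference was -1.23. Intronic fragments that held some exon sequence lay in between, with a median of 2.08 (59 fragments) against 3.54 for the 449 without any.

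The exonic fragments were not of 1 kind. MACROH2A1, the gene of the histone variant macroH2A1, had 151 polyA− and 336 polyA+ reads in the fragment at chr5:135345081-135347606 and 350 and 533 in another. HNRNPU, which encodes a nuclear matrix RNA-binding protein, had 464 and 612 reads, and the ribosomal protein gene RPL27A had 128 and 89. In the opposite direction stood ZEB2, a zinc finger transcription factor gene, with 598 and 123 reads in a fragment that was 87.8% exonic (4.86, 4.00 to 5.95) and 87 and 9 reads in a wholly exonic one (9.67, 4.86 to 21.8). FARS2, a mitochondrial tRNA synthetase gene, had 49 and 16 reads in exons. The exonic fragments named in this paragraph were picked after their values were seen.

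Fragments far from the end of the host gene had higher ratios. Within 5 kb of the annotated 3′ end, the median ratio was 0.503 (9 fragments). It was 0.862 at 5 to 20 kb (47 fragments), 1.74 at 20 to 50 kb (88), 2.84 at 50 to 100 kb (79) and 4.18 at 100 to 200 kb (131). Beyond that it levelled off, at 5.57 for 200 to 500 kb (137) and 5.34 farther away (36). The Spearman correlation with this distance was 0.52 over 527 fragments, and that with host gene length was 0.51. Over relative position along the gene, cut into 5 equal parts, the median fell from 4.30 in the first to 1.88 in the last. Expression of the host gene showed no such relation, with a correlation of 0.02 to its FPKM over 487 fragments. These are descriptions over fragments that share genes and libraries.

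**Figure D2:**
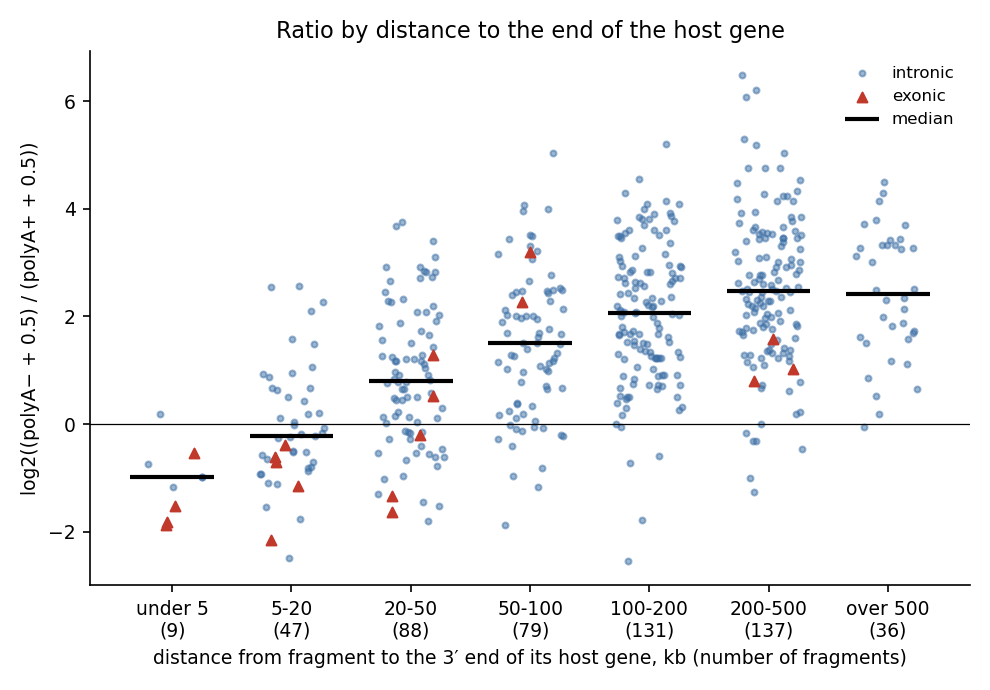
Log2 ratio of polyA− to polyA+ reads (y, 0.5 added to each count) of the 527 fragments in genes, by distance to the 3′ end of the host gene in kb (x), with the number of fragments in brackets. Blue points are intronic and red triangles exonic fragments, black bars are medians, and the horizontal line marks equal counts. Medians rise from -0.99 under 5 kb to 2.48 at 200 to 500 kb.

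Host gene length and distance were also crossed. In hosts up to 200 kb, the median ratio was 0.999 within 50 kb of the end (118 fragments) and 2.89 at 50 to 150 kb (76). In longer hosts, it was 2.87 within 50 kb (26 fragments), 3.56 at 50 to 150 kb (92) and 5.50 beyond (208). Within single genes the relation was weaker. Of the 95 genes with at least 2 fragments, the fragment nearest the 3′ end had a lower ratio than the one farthest from it in 54 genes, and not in 41. The median difference was 0.19 on the log2 scale. In the 30 genes whose fragments spanned over 100 kb, the nearest was lower in 21, with a median difference of 0.55.

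Fragments of the same host gene were closer to each other than fragments of different genes, but far from equal. Over the 1131 pairs within the 95 genes (397 fragments), the median absolute log2 difference was 0.98, a factor of 1.97. Over the 165045 pairs from different genes or intergenic sites it was 1.49, a factor of 2.80. Genes with many fragments supply many pairs and so weigh more in the value within genes. Neighbours less than 5 kb apart differed by a median factor of 1.53 (109 pairs), those 5 to 20 kb apart by 1.59 (94) and those over 50 kb apart by 2.49 (45). The SD within genes was 1.05 on the log2 scale. Counting error alone gives 0.40, which leaves 0.98 beyond it. The SD over all 577 fragments was 1.53.

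In 64 of the 95 genes every fragment had more polyA− reads, in 7 every fragment had more polyA+ reads, and 23 genes held both. In 9 genes, fragments lay on both sides of equality with intervals that excluded it. PSMA1 was one of them. Besides the LINE-1 fragment, it had 67 polyA− and 28 polyA+ reads at chr11:14635606-14638263 (2.39, 1.52 to 3.86). Another PSMA1 fragment, under the minimum of 50 reads, had 40 and 5 reads. JAK2 was another, with 54 and 9 reads (ratio 6, 2.94 to 13.8) at chr9:5031812-5037313, a fragment that also carries sense LINE-1 sequence. MIR4435-2HG, a lncRNA gene, spanned 0.411 (44 and 107 reads) to 7.47 (142 and 19 reads). The last gene was singled out after its values were seen.

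Summed over their fragments, 5 host genes stood at the polyA+ end. SLC6A6 had 33 polyA− and 102 polyA+ reads (0.324, 0.212 to 0.483), although 2 further fragments, under 50 reads each, had 24 and 9 and 24 and 6 reads. GOLGA1 had 51 and 143 reads (0.357, 0.254 to 0.494), and its fragments agreed, with 16 and 47 and 35 and 96 reads. The fragments of GOLGA1 under the minimum, with 12 and 36 and 7 and 26 reads, lay on the same side. TBXAS1 had 148 and 408 reads (0.363, 0.298 to 0.439), but its fragment nearest the 3′ end had 74 and 66. PSMA1 had 201 and 523 reads (0.384, 0.325 to 0.453). XRRA1 had 91 and 180 reads (0.506, 0.388 to 0.654), with its second fragment at 53 and 61.

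At the other end stood MAML2 with 174 and 11 reads over 3 fragments (15.8, 8.62 to 32.3), CAVIN2-AS1 with 402 and 26 over 5 (15.5, 10.4 to 24.0) and ENSG00000277654 with 209 and 14 over 2 (14.9, 8.70 to 27.8). SGMS1, a sphingomyelin synthase gene, had 543 and 37 reads over 3 fragments (14.7, 10.5 to 21.1), and LINC02882 had 137 and 11 over 2 (12.5, 6.75 to 25.5). These genes were picked for their high ratios. Every fragment of theirs with 50 or more reads was over 2-fold higher in polyA− RNA, as in 45 of the 95 genes and for 67.1% of all fragments. Their intervals overlap, so the order among them is not resolved.

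The genes with the most fragments show how wide the spread within 1 gene can be. ARHGAP6 had 12 fragments, all over 2-fold higher in polyA− RNA, with ratios of 4.25 to 110. The fragment nearest the gene end, 117 kb away, had 102 polyA− and 14 polyA+ reads. The fragment at 133 kb had 289 and 68 reads, those at 282 and 288 kb had 272 and 14 and 257 and 11, and that at 301 kb had 110 and 1. The ratio followed the distance with a Spearman correlation of 0.94 over these 12 fragments. CCDC26, a lncRNA gene of over 1 Mb with 19 fragments, had ratios of 1.14 to 24.1 and a correlation of 0.64. MGC4859 had 10 fragments with ratios of 2.87 to 43.4 and a correlation of 0.66. The lncRNA gene LINC02476 had 12 fragments with 2.50 to 20.4 and a correlation of 0.42.

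The remaining genes of this group showed little order along the gene. CPED1 had 15 fragments with ratios of 1.42 to 15.2 and a correlation with distance of 0.175. ENSG00000189229 had 15 fragments with 1.57 to 15.9 and a correlation of 0.225, and ENSG00000260289 had 12 fragments with 0.948 to 7 and one of 0.33. In ZEB2, 8 fragments ran from 2.10 to 17.3 with a correlation of -0.10. Its highest ratio, at 674 polyA− and 39 polyA+ reads, lay 135 kb from the gene end. Its lowest, at 61 and 29 reads, lay farther away at 152 kb and was the fragment poorest in A of the gene (14.02%).

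**Figure D3:**
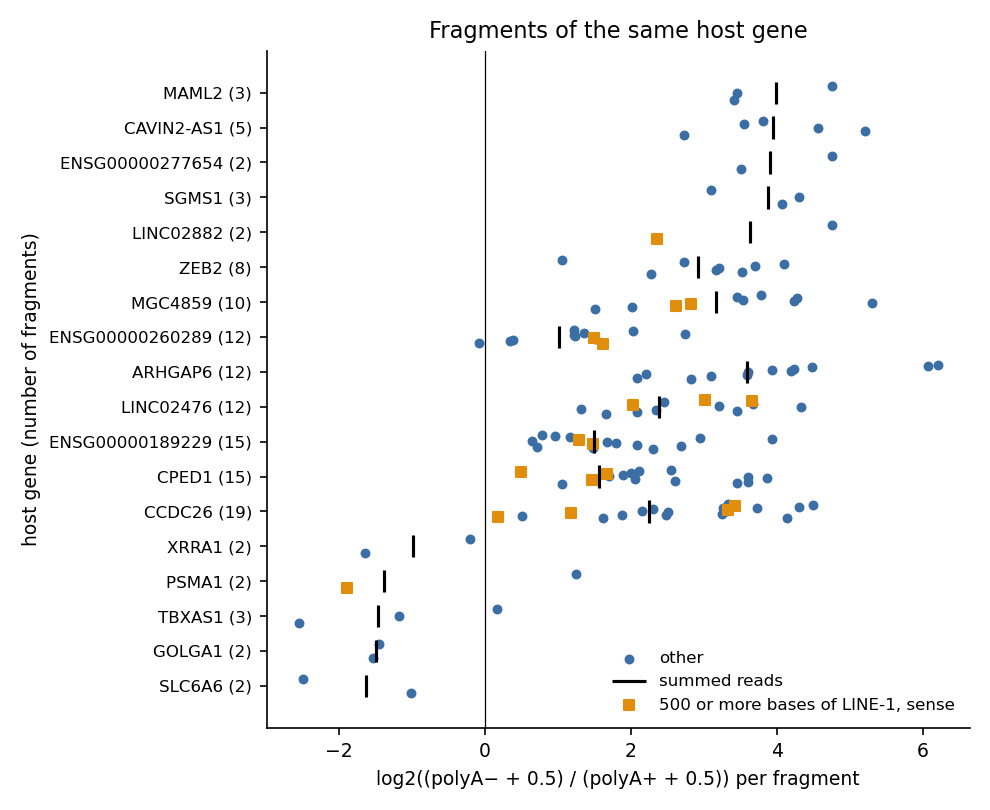
Log2 ratio of polyA− to polyA+ reads (x, 0.5 added to each count) for each fragment with 50 or more reads of 18 host genes (y, number of fragments in brackets). These are the 5 genes at the polyA+ end (bottom), the 8 genes with the most fragments (middle) and the 5 at the polyA− end (top). Blue points and orange squares are fragments without and with at least 500 bases of sense LINE-1 sequence, black bars are the ratio of summed reads, and the vertical line marks equal counts. ARHGAP6 spans 4.25 to 110 as ratios, and the LINE-1 fragment of PSMA1 lies left of the line while its other fragment lies right of it.

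LINE-1 sequence in the sense direction went with lower ratios. Of the 577 fragments, 130 carried at least 500 bases of it, summed over separate matches, and had a median ratio of 1.97. The 415 with under 500 bases in either direction had 4.20 and are called without LINE-1 sequence here. The sense matches can be a small part of a long fragment, such as 576 of 13852 bases in CCDC26, beside 590 antisense bases. The 13 antisense fragments had a median of 2.69, with 4 over 2-fold in the polyA+ direction and 8 (61.5%) in the polyA− direction, against 4.16% and 67.1% over all fragments. Fragments with sense LINE-1 sequence were below those without in each class of host length. In hosts up to 100 kb the medians were 0.757 (19 fragments) and 0.999 (62). They were 1.15 (31) and 2.85 (83) at 100 to 200 kb, 2.30 (40) and 5.32 (126) at 200 to 400 kb, and 3.54 (40) and 6.93 (113) in longer hosts. Within genes that held both kinds, the LINE-1 fragments had the lower median in 26 of 36 genes, by a median of 0.97 on the log2 scale (59 and 155 fragments). The median content of A was 39.4% with sense LINE-1 sequence and 31.2% without. The median nuclear to cytoplasmic ratio was 18.8 with it and 25.6 without. The part that A content and reads shared between LINE-1 copies have in this difference was not tested.

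Stretches of A went with a similar but smaller difference, also among fragments below the LINE-1 threshold. An A-tract was defined as a window of 20 bases with at least 16 A on the transcribed strand. Within classes of fragment length, the 222 fragments with an A-tract had a median log2 ratio lower by -0.92 than the 305 without. Leaving out all fragments with LINE-1 sequence gave -0.74 (132 and 252 fragments). T-tracts, the same windows counted for T, went the other way, with a difference of 0.52 (133 and 394 fragments). Overall content of A had little relation to the ratio below the LINE-1 threshold (Spearman -0.01 over 384 fragments). The longest run of A had -0.07 and content of G had -0.09. Content of C had -0.22 and content of T had 0.38. An A-tract was present in 2 of 12 fragments at the polyA+ end and 1 of 12 at the polyA− end, against 222 of the 527 fragments in genes.

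Among lists of genes, the nuclear lncRNAs held the most tested fragments. Of 30 tested fragments in this list, 24 (80%, against the 67.1% over all fragments) were over 2-fold higher in polyA− RNA. None was over 2-fold higher in polyA+ RNA (4.16% over all), and the median ratio was 5.87. CCDC26 supplied 19 of the 30, so the counts are mostly those of 1 gene. The list leaves out other nuclear lncRNAs. An unnamed lncRNA fragment on chromosome X outside it had 662 polyA− and 1671 polyA+ reads, and the twelfth fragment of the polyA+ end had 1293 and 3739. MALAT1, whose 3′ end is formed without a standard poly(A) tail and is shielded by a triple helix, had 6584 polyA− and 10766 polyA+ reads, 1.64-fold higher in polyA+ RNA (1.59 to 1.69). It also had 1228 cytoplasmic and 4778 nuclear reads. In LINC00534, tested fragments ran from 59 and 74 reads to 82 and 2. The 3 lowest of its 6 tested ratios (0.797, 1.17 and 2.44) all belonged to fragments with sense LINE-1 sequence. PVT1, a lncRNA next to MYC, had 29 and 6 reads.

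Within PRC2, only EZH2 hosted fragments, 4 in all and each wholly exonic. Those under the minimum had 6 and 38, 6 and 36, and 5 and 18 reads, and summed over all 4 the polyA+ excess was 4.67-fold (3.69 to 5.98). None of the 25 genes of 3′ end processing and nuclear RNA decay hosted a fragment. Of the erythroid and leukemia genes, ABL1, BCR and RUNX1 hosted 14 tested fragments, of which 12 (85.7%, against 67.1% over all fragments) were over 2-fold higher in polyA− RNA and none in polyA+ RNA (4.16% over all). ABL1, the kinase of the fusion, had 713 and 165 reads (4.32, 3.64 to 5.15), with its 6 fragments between 2.88 and 7.44. BCR, its partner, had 164 and 67 reads (2.45, 1.83 to 3.30), and its 3 fragments agreed closely at 2.35, 2.48 and 2.55. RUNX1, a hematopoietic transcription factor gene, spanned 1.37 to 5.09 over 5 fragments.

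LEVER, the long transcript upstream of the embryonic globin gene HBE1 on which the study centres, had 4 fragments. Summed, they had 587 polyA− and 197 polyA+ reads. That summed ratio of 2.98 (2.53 to 3.52) stood against 1.83 over all 900 fragments and 2.11 without MALAT1. The median ratio of the 4 fragments was 3.64, against 3.24 over the 577 fragments. The fragment farthest downstream (chr11:5335607-5339352), with 66 and 70 reads, stood apart from the others. It carries sense LINE-1 sequence, but so does the fragment at chr11:5457044-5459244, which had 139 and 39 reads.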

How the data were processed

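Fractionated RNA-seq libraries of wild-type K562 cells were compared, 1 library per fraction. The authors trimmed reads with TrimGalore, mapped them with STAR to GRCh38 with GENCODE 26, removed PCR duplicates with SAMtools and alignments under mapping quality 20, and deposited raw read counts per EZH2 RIP-seq fragment from featureCounts, whose strand setting is not given in the sources used here. The deposited FPKM values of the RIP-seq input RNA were made by the authors with cuffdiff. These served for the cell line check and host gene expression.

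Counts were joined on chromosome, start and end and used without scaling, because the sums over the listed fragments are not library totals. Ratios carry exact 95% Clopper-Pearson intervals, and 0.5 was added to each count for log2 values. Host genes (at least 50% of the fragment, protein-coding first) came from GENCODE 44. Exon bases were counted for the host gene only, so exons of another overlapping gene are not included. LINE-1 sequence was found with BLAST 2.17.0 at 70% identity or more, against reference LINE-1 copies in the fragments themselves. These copies were located by a reverse transcriptase motif and taken with up to 2000 bases upstream and 1700 downstream. Whether these windows held only LINE-1 sequence was not checked. Matches in a fragment were summed by direction, and fragments under 500 bases counted as without LINE-1. The procedures were tested on simulated data.

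Fragments named were the 12 at each end of the ratio, the 5 host genes at each end among those with 2 or more fragments, the 8 host genes with the most fragments, and members of lists (LEVER, nuclear lncRNAs, PRC2, 3′ end processing and decay, erythroid and leukemia genes). Genes of X inactivation were counted but not named. Some reference sequences are not reported here. The members and lists were chosen with earlier results of these data known, and distances in kb and LINE-1 were examined after the ratios had been seen. Alternatives comprised 3 scalings, other minimum reads and thresholds, and the leaving out of fragments.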

Additional observations from a re-analysis of the deposited data

How the results depend on the processing

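No paired analysis was possible because each fraction is 1 library. The level of every ratio rests on the scale between the libraries. With the median ratio set to 1, the summed ratio turned to 0.564, the median log2 ratio was 0.00 by construction, and 156 and 152 fragments were over 2-fold higher in polyA− and polyA+ RNA. With equal sums, the summed ratio was 1.00, the median log2 ratio 0.82 and the polyA+ count 77. Describing nuclear reads as a weighted sum of both fractions gave polyA+ a weight of 0.0270 relative to polyA−, which rested on MALAT1 (0.127 without it, 0.0972 without the 10 fragments with most reads). Under these weights the summed ratio was 67.6, the median log2 ratio 6.90, no fragment was over 2-fold higher in polyA+ RNA, and all 12 at the polyA+ end reversed: TBXAS1 6.27, SLC6A6 6.28, EZH2 8.24, PSMA1 10.0, MFSD14CP 9.94, VEGFA 10.38, JAK2 10.40, NLRP1 10.45, LINC00342 10.8, XRRA1 11.8, ENSG00000283515 12.6 and the X-linked fragment 12.8. Without the 10 fragments with most reads the summed ratio was 2.32, and without MALAT1 alone 2.11.

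The polyA− count was 237 at a minimum of 100 reads and 634 without a minimum, and 10 fragments were over 3-fold higher in polyA+ RNA. Without LINE-1 fragments the median log2 ratio was 2.07, the SD within genes beyond counting error 0.877 and the difference between genes 1.497. Other differences between genes were 1.47 (minimum of 20 or none), 1.55 (minimum of 100) and 1.46 (1 added). Without a minimum, the difference within genes was 1.06 and the SD 0.784. The correlation with the nuclear to cytoplasmic ratio was 0.589 at a minimum of 100. The differences between exonic and intronic fragments, along the gene and by A-tract kept their sign under every alternative run, and with 1 fragment per host gene they were -1.72, -1.72 and -0.69. Alternatives without LINE-1 fragments and without MALAT1 alone were chosen after the data were seen. Depth limits ratios with 1 to 3 polyA+ reads at the polyA− end, whose intervals reached from 10.4 to 155 in LINC02882 and from 19.3 to 4384 in ARHGAP6.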
